A study of Zea mays with 12 samples.

Results

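The 200 most abundant transcripts of the growing maize root tip were taken from a table of 42976 features with read counts in 12 RNA-seq libraries. Counts per 1000000 gene counts (CPM) were computed for each library as the count of a feature divided by the sum of all gene rows, and the 200 features with the highest mean CPM over the 12 libraries were kept, apart from 5 features that the rule leaves out, 3 of which ranked in the first 200, at places 31, 35 and 170. The members were thus selected on their mean CPM, so the level itself is given as a description. A mean over all libraries used no comparison between groups, but it can admit a transcript that is high under 1 treatment only. Seedlings of the inbred line FR697 were grown in the dark in vermiculite held at -0.02 MPa (well-watered, WW) or at -1.6 MPa (water-stressed, WS), and primary root tips were collected at 24 or 48 h, with 3 libraries in each of WW24, WS24, WW48 and WS48. The tips, pooled within a sample and cut to span the elongation zone of each treatment, were 12 mm long in the WW groups and 7 mm long in the WS groups, so that segment length changes with treatment and the contributions of the 2 cannot be told apart. WW48 was the control of the same age for WS48, and WW24 the control of about the same root length. The study describes the 3 replicates of a group as independent experiments. All samples came from 1 inbred line, and the labels name no transgene or mutant allele.

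The root tip holds the dividing cells of the meristem, covered by the root cap, and behind them the cells that elongate, and in most tissues a small set of genes supplies a large part of the messenger RNA. Genes for the translation machinery, the cytoskeleton, the cell wall and primary metabolism are typical members of that set in growing plant cells. At low water potential root elongation slows and the growing zone becomes shorter, and solutes and wall-modifying proteins are known to take part in keeping the apical cells growing. In these bulk samples, fewer cells of a type and less of an RNA per cell cannot be told apart. Of the 200 members, 196 were annotated nuclear genes, 3 were assembled transcripts without a reference gene and 1 carried only a label of similarity to a known protein. None was mitochondrial or plastid, and the most abundant organelle feature held place 4449. The libraries were made from mRNA isolated with oligo-dT beads, so these places describe RNA selected in that way and not all RNA of the tip. The sources used here describe 13 of the members, 9 of them through the study's own lists of differentially accumulated transcripts, 3 through its list of orthologs and 1 through the label in the file, and 187 members have an identifier only. No role is given for those 187.

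Gene counts per library ranged from 40005384 to 54863708, and the lowest count of any member in any library was 3955, so that counting error was small beside the usual spread between replicates. The median within-group SD of log2 CPM was 0.096 over the members, 0.0965 over the 800 features ranked next and 0.165 over all 26746 features that passed the filter on low counts, which all 200 members passed. The third WS24 library stood apart, with 23.1% of its reads not aligned against 12.7 to 15.0% in the other 11, and organelle features at 308 CPM against 67.2 to 122. Markers of other tissues were low: 1 described leaf gene summed to 0 to 4.71 CPM in WW and 0 to 0.0468 CPM in WS libraries, and 1 described seed gene to 0.456 to 0.943 and 13.1 to 23.8 CPM. Summed levels of zone markers differed between treatments, though single genes within a sum can go the other way. Of 4 described features of histones and chromatin, 2 increased and 2 decreased in WS48 against both controls, by the thresholds given below. The summed CPM of 24 described elongation zone genes lay between 508 and 549.7 in WW and between 893 and 1412 in WS libraries, that of 7 meristem genes between 104 and 123 and between 132 and 172, and that of 5 secondary wall genes between 8.90 and 17.7 and between 67.7 and 132. None of these marker genes was among the 200, and none was at 0 in all libraries. The part of these zones in the results was not tested. Descriptions favour changed genes, since 1377 of the 1507 described nuclear features come from the study's lists of differentially accumulated transcripts. A difference of described markers between treatments was therefore partly built in.

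The 200 transcripts, of 42976 features, held 17.9 to 20.5% of all gene counts in a library, and a smaller share under water stress. Their share was 19.98% ± 0.692 (SD, n = 3) in WW24, 18.25% ± 0.587 in WS24, 19.27% ± 0.212 in WW48 and 18.25% ± 0.164 in WS48. By library the share ran from 19.2 to 20.5% in WW24, 17.9 to 18.9% in WS24, 19.1 to 19.5% in WW48 and 18.1 to 18.4% in WS48. The 6 WS libraries therefore all lay below the 6 WW libraries, and the highest WS value, 18.93%, came from the third WS24 library. Without it the WS libraries lay between 17.9 and 18.4%. The mean share fell by 1.728 percentage points from WW24 to WS24 and by 1.014 percentage points from WW48 to WS48. The single most abundant transcript took 0.791% ± 0.0559 of counts in WW24, 0.72% ± 0.0336 in WS24, 0.737% ± 0.0474 in WW48 and 0.779% ± 0.0474 in WS48. The first 10 members together held 3.37% ± 0.106, 3.13% ± 0.163, 3.36% ± 0.184 and 3.11% ± 0.0272 in the same order of groups, and the first 100 held 13.63, 12.47, 13.09 and 12.45%. The 800 features ranked next held 22.9, 21.4, 22.7 and 21.8%, so that a lower share under stress was not particular to the 200. As the shares are sums over chosen members, they carry no p-value.

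**Figure D1:**
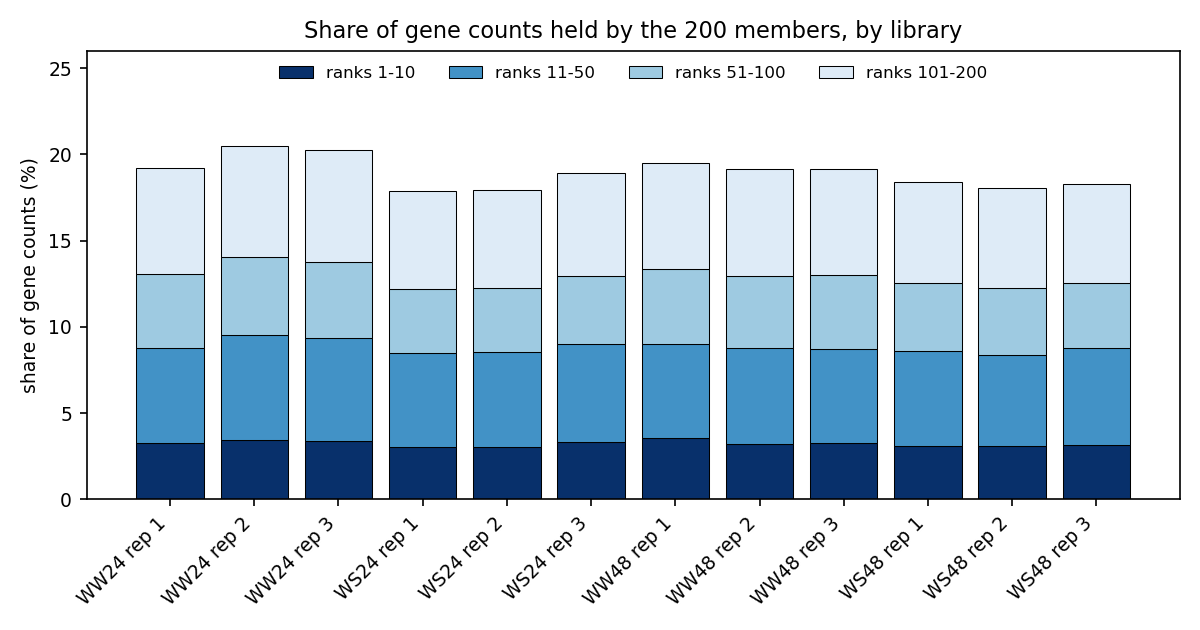
Percent of all gene counts held by the 200 members in each of the 12 libraries, 1 bar for a library, stacked by rank (the first 10, the next members to rank 50 and to rank 100, and the last 100) on an axis that starts at 0. The 6 water-stressed libraries lie between 17.9 and 18.9% and the 6 well-watered libraries between 19.1 and 20.5%.

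Mostly the same transcripts were the most abundant in every group. When features were ranked by the mean of each group alone, with the same features left out, 179 of the 200 were in the first 200 of WW24, 178 in that of WS24, 178 in that of WW48 and 186 in that of WS48, and 153 were in the first 200 of every group. In single libraries, 133 members were among the first 200 of all 12. Another 13 were in the first 200 of both WW groups and of neither WS group, and 18 were in those of both WS groups and of neither WW group. Around the threshold the levels were nearly continuous: Zm00001d024379, Zm00001d034761 and Zm00001d005347 were the last members, at a mean of 502.6, 502.2 and 500.492 CPM, and Zm00001d044614, Zm00001d047910 and Zm00001d034388 were the first features outside, at 500.413, 500.413 and 500.253 CPM. Choosing by TMM-scaled CPM shared 199 features with these 200, and choosing by the median over libraries shared 195. The ranking is by reads and not per transcript length, so a long transcript ranks higher than a short one at equal numbers of molecules, and levels of different members are not compared here beyond their share of reads.

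The first member, Zm00001d023994, stood apart from the others, with a mean of 7565 CPM over the 12 libraries, 2.33 times the reads of the next. Its libraries held 7264, 8265 and 8196 CPM in WW24, 6816, 7316 and 7455 in WS24, 7909, 7048 and 7137 in WW48 and 7747, 7342 and 8286 in WS48, and the 4 groups overlapped. Its TMM-scaled log2 difference was -0.05 (SE 0.10, adjusted p = 0.732) in WS48 against WW48 by edgeR's quasi-likelihood test, and was 0.08 with no scaling between libraries, so that its sign depended on the scaling. At 24 h it was -0.28 (SE 0.10, adjusted p = 0.0324). 2 further members near the top, at places 2 and 4, Zm00001d031168 and Zm00001d002690, had lower levels under stress, with log2 differences of -0.43 (SE 0.11, adjusted p = 0.00706) and -0.54 (SE 0.09, adjusted p = 0.000582) in WS48 against WW48. Zm00001d042453, at place 18, held 2140.2, 2544 and 2389 CPM in WW24, 1329, 1330.4 and 1431 in WS24, 2273, 2162 and 2200.2 in WW48 and 1377, 1379 and 1242 in WS48. Every WS library was below every WW library for this gene, and its log2 difference was -0.86 (SE 0.09, adjusted p = 1.19e-05) at 48 h and -0.93 (SE 0.09, adjusted p = 5.23e-06) at 24 h, the largest decrease in size among the first 20 members at both times. Zm00001d003157, at place 14, was the only one of the first 20 with a higher level in WS48 than in WW48 at an adjusted p of 0.05 or less, with 1805, 1803 and 1579 CPM in WW48 and 2343, 2140.0 and 2401 in WS48 and a log2 difference of 0.28 (SE 0.09, adjusted p = 0.0202). By the same test its difference was 0.02 (SE 0.09, adjusted p = 0.878) in WS48 against WW24. At 24 h it was 0.09 (SE 0.09, adjusted p = 0.418), so the increase was seen against WW48 only. Of the first 20, none described, 13 were lower and 1 higher in WS48 than in WW48 at an adjusted p of 0.05 or less. Over all features tested, 20.5% were lower and 19.7% higher at that level. At 24 h 11 of the 20 were lower and 1 higher, beside 21.4 and 21.9% of all features. The features ranked next had a downward tilt too, as given below, and none of the first 20 passed the fold threshold in any comparison. Their ratio of highest to lowest library ranged from 1.2 to 2.49, with a median of 1.48.

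**Figure D2:**
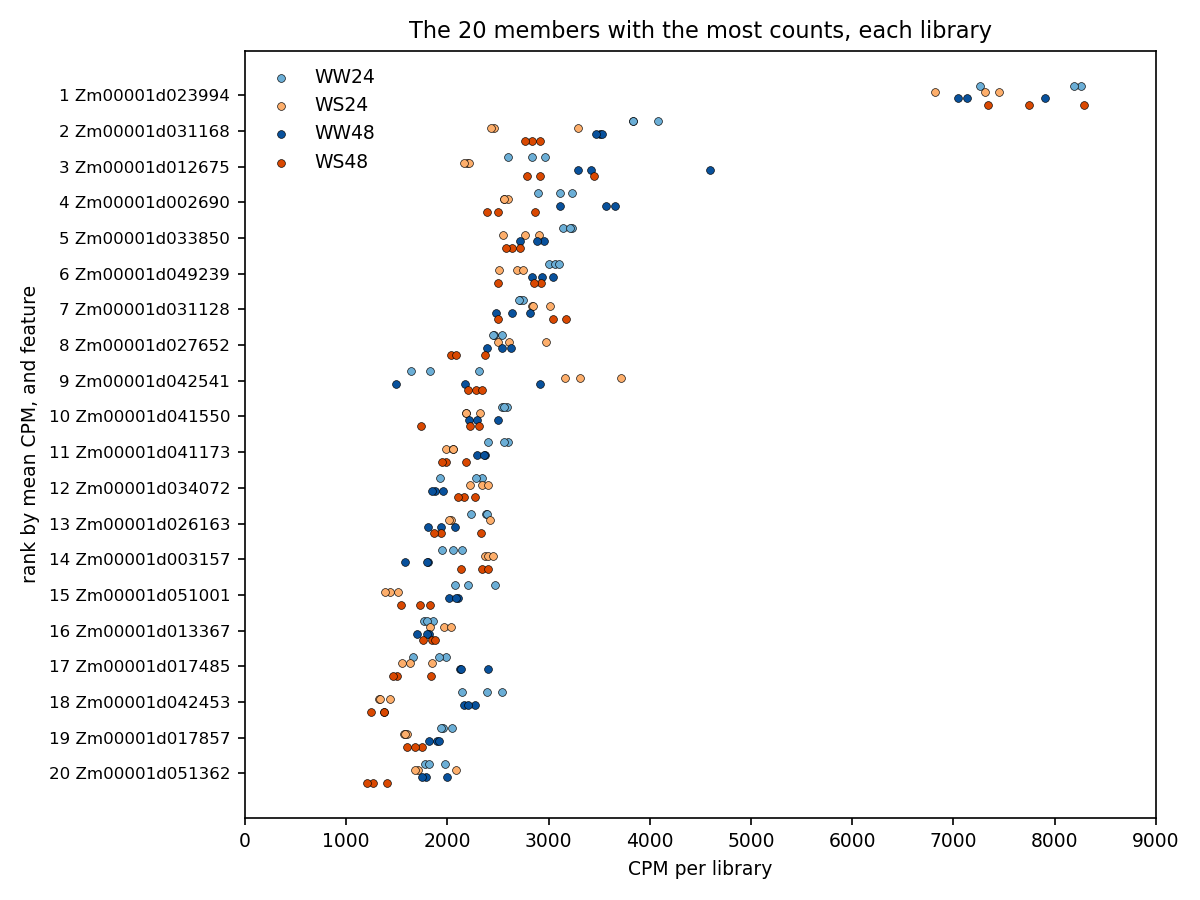
CPM of the 20 most abundant members in each of the 12 libraries, with 1 row for a member and 1 point for a library, coloured by group. The first member lies between 6816 and 8286 CPM in all libraries, the others between 1202 and 4593 CPM.

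A transcript was called changed where edgeR's quasi-likelihood test gave a Benjamini-Hochberg adjusted p of at most 0.05 over the 26746 features tested and the log2 difference was at least 1 in size. In WS48 against both WW controls, which the study uses to define a differentially accumulated transcript, 2 members increased, beside 5.53% of all features tested, and 8 decreased, beside 4.03%. In the comparison of WS48 with WW48 alone, 2 increased (7.2% of all features) and 8 decreased (6.88%), and against WW24, 2 increased (7.84%) and 9 decreased (4.79%). At 24 h, 4 increased (9.27%) and 10 decreased (5.64%). Increases thus made up 1 to 2% of the members, under the background in each of these comparisons, whereas decreases made up 4 to 5%, near the background in all but WS48 against WW48, where they were under it. These comparisons share libraries and do not count as separate evidence. The features left out by the rule, some of them called, are not in the counts of members. Neither increased member and 1 of the 8 decreased members was in the first 200 of every group. Both increased members were outside the first 200 of both WW groups, and 5 of the decreased members were outside the first 200 of both WS groups, so that these 7 became members through the treatment in which they were high. Among the 800 features ranked next, 12 increased and 21 decreased against both controls, or 1.5 and 2.62%. With no scaling factors the counts in WS48 against WW48 were 5 increases and 6 decreases, beside 2291 and 1543 of all features tested. Against both controls they were 2 and 6, beside 1770 and 875. The count of increases in WS48 against WW48 was 4 without the second WW48 library, beside 1824 of all features. At 24 h that count was 2 without the first WW24 or the third WS24 library, beside 2647 and 2402 of all features. The decreases at 24 h numbered 10 without the third WS24 library, beside 1422.

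Without a fold threshold more members passed the test than not at both times, mostly downward. By the adjusted p alone, 94 members were lower and 23 higher in WS48 than in WW48, or 47.0 and 11.5% of the 200, beside 20.5 and 19.7% of all features tested. Against WW24, 106 were lower and 17 higher in WS48, beside 19 and 20% of all features. At 24 h 120 were lower and 21 higher, beside 21.4 and 21.9%. The 800 features ranked next had the same tilt, with 368 lower and 112 higher at 48 h and 458 lower and 105 higher at 24 h, so that it was not particular to the 200. The median log2 difference of the members was -0.203 in WS48 against WW48 and -0.316 in WS24 against WW24, beside -0.188 and -0.299 for the features ranked next and 0.00621 and 0.012 for all features. The median absolute log2 difference was 0.291 in WS48 against WW48, 0.337 in WS48 against WW24 and 0.381 at 24 h, beside 0.331, 0.327 and 0.358 over all features. The split between higher and lower depended on the scaling. With gene totals alone and no scaling factors, the median of all features was 0.134 in WS48 against WW48 and that of the members -0.076, and 65 members were lower and 45 higher by the adjusted p alone, while the gap between both medians was -0.21, against -0.209 with TMM. In raw CPM, all 6 WS libraries were below all 6 WW libraries for 56 members (9.82% of all features) and above them for 31 (22.9%), and after TMM scaling for 79 (15.3%) and 14 (15.9%). All WS libraries were thus below all WW libraries for 28% of the members in raw CPM and 39.5% after scaling, beside 25.9 and 42.8% of the 800 features ranked next.

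**Figure D3:**
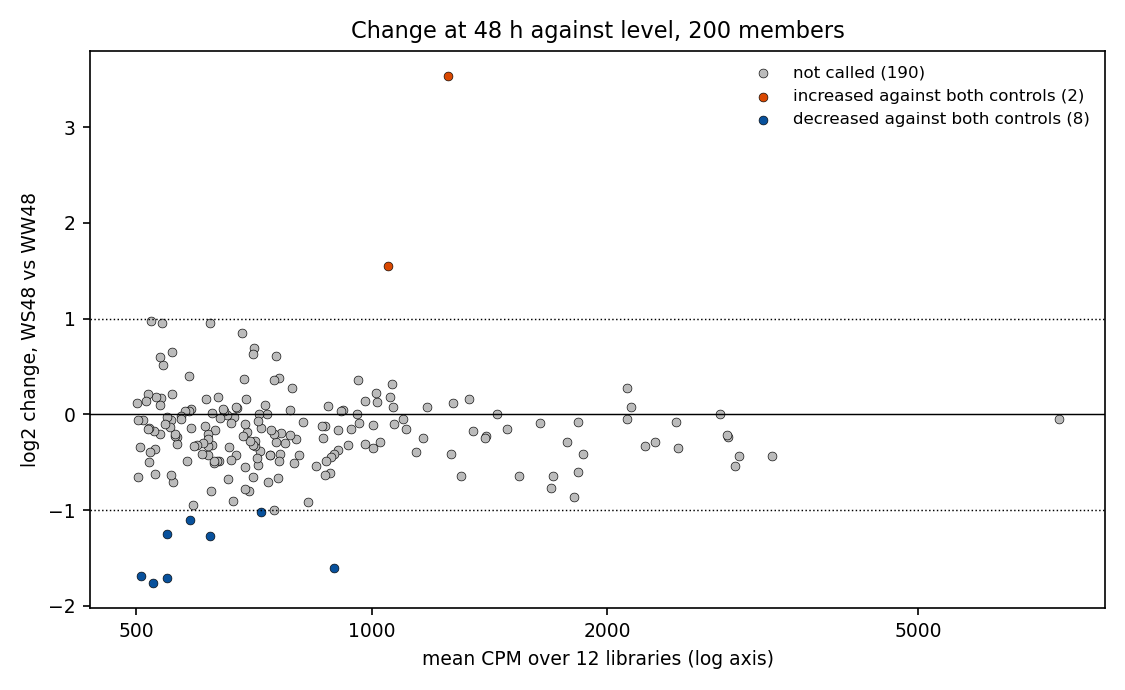
Log2 difference of WS48 against WW48 (TMM-scaled fit) plotted against mean CPM on a log axis for the 200 members, with called members marked and lines at the fold threshold of 1 in each direction. Of the 200 members, 2 lie at or above 1 with a call and 8 at or below -1, and no member among the first 20 does.

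Of the 2 members that increased, the change of Zm00001d019163 was by far the larger. This gene, at place 33, is described as seed imbibition 2, a member of the raffinose synthase and alkaline alpha-galactosidase family, whose enzymes make or break down raffinose-family sugars. Its libraries held 236, 92.7 and 109 CPM in WW24, 2737, 2836 and 3273 in WS24, 119, 189.6 and 113 in WW48 and 1669, 1591 and 2061 in WS48. The WS libraries lay between 1591 and 3273 CPM and the WW libraries between 92.7 and 236, so the groups were far apart at both times. The level in WS48 was 12.6 times that in WW48 by group means, with a log2 difference of 3.53 (SE 0.31, adjusted p = 2.32e-06) against WW48, 3.48 (SE 0.31, adjusted p = 2.82e-06) against WW24 and 4.22 (SE 0.32, adjusted p = 5.62e-07) at 24 h. In WW48 it would not have been among the 200, with place 1437 in that group, and in WS24 it held place 3. It also had the largest within-group SD of all members, 0.431 on the log2 scale.

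The second, Zm00001d028998, at place 43, is a hydroxyproline-rich glycoprotein, a family of structural proteins of the cell wall. It held 448, 432 and 444 CPM in WW24, 1726, 1596 and 1867 in WS24, 521, 433 and 500.4 in WW48 and 1538, 1581 and 1523 in WS48. Its place was 277 in WW24 and 227 in WW48, outside the first 200 of both. The WS libraries all lay above the WW libraries, at 3.19 times the level in WS48 against WW48. The log2 difference was 1.55 (SE 0.09, adjusted p = 5.9e-08) against WW48, 1.67 (SE 0.09, adjusted p = 3.26e-08) against WW24 and 1.83 (SE 0.09, adjusted p = 1.21e-08) at 24 h. Both increases held under each of the 22 alternatives run.

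Among the decreases, Zm00001d003401, at place 61, was the most abundant. It is described as general regulatory factor 7, the Arabidopsis name of a 14-3-3 protein, a family that binds phosphorylated partner proteins. Its libraries held 1219, 1309 and 1373 CPM in WW24, 465, 472 and 441 in WS24, 1293, 1462 and 1260.4 in WW48 and 489, 433 and 521 in WS48. The 6 WS libraries lay between 433 and 521 CPM and the 6 WW libraries between 1219 and 1462, and the log2 difference was -1.60 (SE 0.09, adjusted p = 6.5e-08) in WS48 against WW48 and -1.64 (SE 0.09, adjusted p = 4.47e-08) at 24 h. The cytoskeleton supplied 2 described members, which differed from each other. Zm00001d021891, at place 142, is tubulin alpha-5, a subunit of microtubules, and held 829, 859.9 and 871 CPM in WW24, 411, 408 and 412 in WS24, 809.6, 911 and 798 in WW48 and 372, 363 and 407 in WS48. Its levels did not overlap between WW and WS libraries, and the log2 difference was -1.27 (SE 0.07, adjusted p = 8.27e-08) at 48 h and -1.20 (SE 0.07, adjusted p = 1.1e-07) at 24 h. Zm00001d011087, at place 100, is actin 7, a subunit of actin filaments, and held 667, 745 and 728 CPM in WW24, 736, 723 and 679 in WS24, 693, 742 and 676 in WW48 and 742, 679 and 778 in WS48. Its WW and WS libraries overlapped, and its log2 difference was -0.07 (SE 0.08, adjusted p = 0.529) at 48 h and -0.14 (SE 0.08, adjusted p = 0.161) at 24 h. Over all 23 described features tested that matched the cytoskeleton keywords, 5 increased and 9 decreased against both controls. The keyword actin also occurs within words such as interacting, so the 23 may hold other proteins. Most described features come from the study's lists of changed transcripts, so this list and the ones below are not independent evidence of a direction.

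The list of wall loosening and wall structure held 2 members, of which the hydroxyproline-rich glycoprotein above increased and 1 decreased. The latter, Zm00001d043929, at place 174, is fasciclin-like arabinogalactan-protein 11, a wall glycoprotein that in Arabidopsis belongs to a group expressed with secondary wall formation. It held 827, 805 and 855 CPM in WW24, 285, 265 and 303 in WS24, 702, 945 and 776 in WW48 and 264, 255 and 290.4 in WS48. The WS libraries all lay far below the WW libraries, with a log2 difference of -1.71 (SE 0.10, adjusted p = 1.13e-07) in WS48 against WW48 and -1.68 (SE 0.10, adjusted p = 1.03e-07) at 24 h. The list of peroxidases also held 2 members, and both decreased. They are described as peroxidase superfamily proteins, enzymes that use hydrogen peroxide to oxidise other compounds. Zm00001d022458, at place 187, held 673, 893 and 842 CPM in WW24, 186, 225 and 259.7 in WS24, 1011, 718 and 711 in WW48 and 264, 239.7 and 287 in WS48, and its log2 difference was -1.76 (SE 0.18, adjusted p = 7.3e-06) at 48 h and -1.99 (SE 0.18, adjusted p = 2.38e-06) at 24 h. This was the largest decrease of any member in WS48 against WW48. Zm00001d040399, at place 156, held 743, 743 and 844 CPM in WW24, 424, 447 and 545 in WS24, 681, 757 and 744 in WW48 and 371, 362 and 379 in WS48, with log2 differences of -1.10 (SE 0.10, adjusted p = 3.96e-06) at 48 h and -0.86 (SE 0.10, adjusted p = 2.57e-05) at 24 h, where it missed the fold threshold. With no scaling its 48 h difference against WW48 was -0.97, short of the threshold. Of the 30 described peroxidases tested, 5 increased and 21 decreased against both controls, and of the 62 described wall features 31 increased and 27 decreased.

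A further 3 members decreased. Zm00001d034420, at place 196, which fell in none of the lists, is glutamate dehydrogenase 1, which interconverts glutamate with oxoglutarate and ammonium. It held 640.0, 833 and 826 CPM in WW24, 211, 207 and 201.4 in WS24, 905, 755 and 698 in WW48 and 270.0, 245 and 288 in WS48. No WS library reached the level of any WW library, and the log2 difference was -1.69 (SE 0.13, adjusted p = 8.05e-07) at 48 h and -2.04 (SE 0.13, adjusted p = 1.52e-07) at 24 h. Zm00001d045042, at place 175, the sole member in the list of sucrose, starch and sugar transport, is sucrose synthase 4, which cleaves sucrose to fructose and UDP-glucose, a precursor of wall polysaccharides, and held 711, 779 and 699 CPM in WW24, 426, 437 and 398 in WS24, 881, 542 and 713 in WW48 and 319.9, 355 and 312 in WS48. Its log2 difference was -1.24 (SE 0.14, adjusted p = 1.88e-05) at 48 h against WW48, -1.29 (SE 0.14, adjusted p = 1.51e-05) against WW24 and -0.94 (SE 0.14, adjusted p = 0.00015) at 24 h, where no call was made. Of the 27 described features of sucrose, starch and sugar transport tested, 16 increased and 11 decreased. The last decrease, Zm00001d025617, at place 96, has no description. It held 884, 913 and 988 CPM in WW24, 511, 499 and 527 in WS24, 905, 1021 and 904 in WW48 and 517, 453 and 549.7 in WS48, and its log2 differences of -1.02 (SE 0.09, adjusted p = 2.32e-06) against WW48 and -1.02 (SE 0.09, adjusted p = 2.71e-06) against WW24 lay at the threshold. Its call was lost without the second WW48, the third WW24 or the second WS48 library and with no scaling, where the difference against WW48 was -0.9. The calls of the 14-3-3 gene, tubulin alpha-5, the fasciclin-like protein, glutamate dehydrogenase 1 and Zm00001d022458 held under each of the 22 alternatives.

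**Figure D4:**
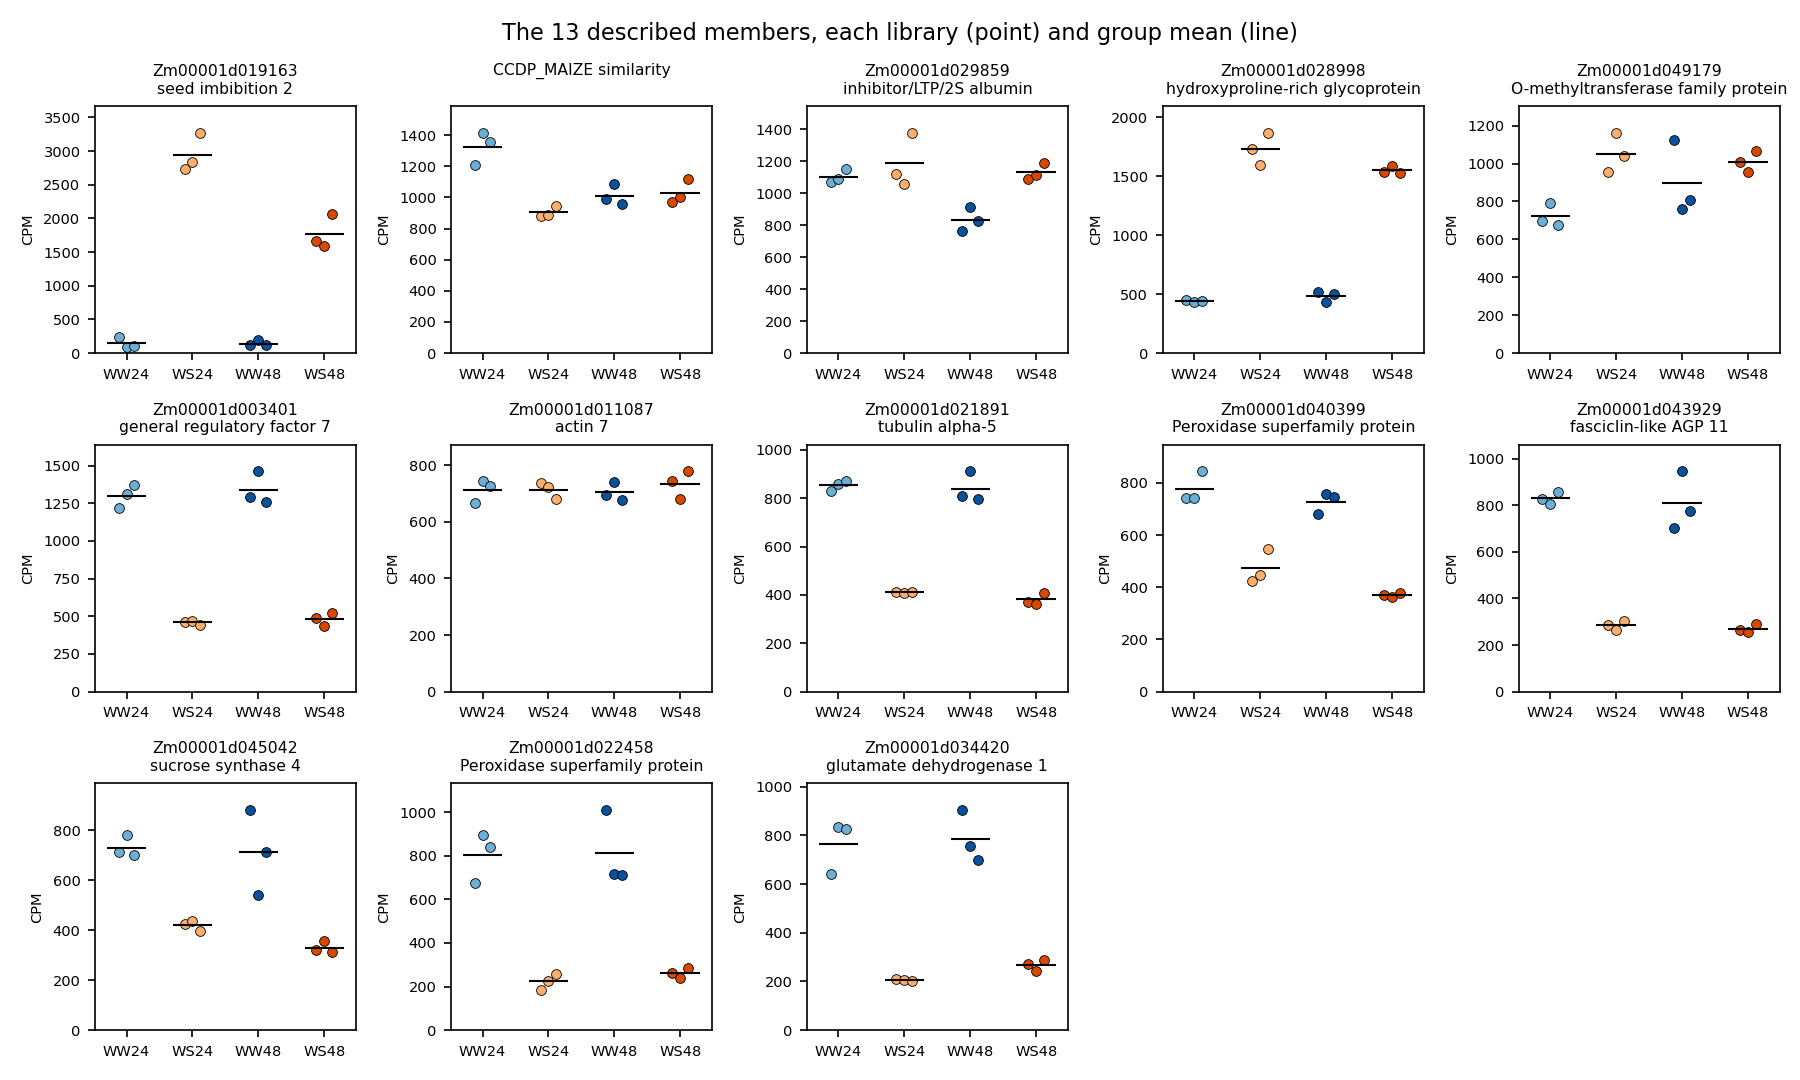
CPM by library for the 13 described members, 1 panel for a member with its own linear axis from 0, with a point for each of the 12 libraries coloured by group and a line at the mean of each group. The points of the 2 increased members lie higher in all 6 WS libraries, those of the 7 described decreased members lower, and the WW and WS points of actin 7 overlap.

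The remaining described members passed no fold threshold. Zm00001d029859, at place 41, belongs to the lipid-transfer protein and 2S albumin superfamily of small secreted proteins and held 1069.6, 1088 and 1148 CPM in WW24, 1123, 1059 and 1378 in WS24, 763, 911 and 828 in WW48 and 1090.0, 1116 and 1189.5 in WS48. Its log2 difference was 0.31 (SE 0.11, adjusted p = 0.0313) in WS48 against WW48 and -0.03 (SE 0.11, adjusted p = 0.836) at 24 h. Of the 34 described features of lipid transfer and storage tested, 17 increased and 6 decreased against both controls. Zm00001d049179, at place 56, an O-methyltransferase, an enzyme type that adds methyl groups to small molecules such as phenolics, held 698, 791 and 675 CPM in WW24, 958, 1163 and 1038 in WS24, 1122, 759 and 808 in WW48 and 1009.7, 954 and 1067 in WS48. Its log2 difference was 0.04 (SE 0.14, adjusted p = 0.838) at 48 h and 0.40 (SE 0.14, adjusted p = 0.0317) at 24 h. The feature labelled by similarity to CCDP_MAIZE, the cortical cell-delineating protein of maize roots, held place 39 with 1205, 1415 and 1357 CPM in WW24, 881, 889 and 942 in WS24, 991, 1085 and 956 in WW48 and 972, 1002 and 1118 in WS48. Its log2 difference was -0.10 (SE 0.09, adjusted p = 0.423) at 48 h and -0.69 (SE 0.09, adjusted p = 6.85e-05) at 24 h, and it was -0.41 (SE 0.09, adjusted p = 0.0416) in WW48 against WW24.

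Across the 200 members Pearson's r between the log2 differences of WS24 against WW24 and of WS48 against WW48 was 0.931 and Spearman's rho 0.862, or 0.906 and 0.859 without seed imbibition 2. These are descriptions across genes, which are not independent replicates, and the sign was the same for 172. These 2 comparisons share no library, although all 12 were fitted together. Of the members, 7 were called at both times in the same direction, 7 were called at 24 h only and 3 at 48 h only. The matching counts over all features were not taken, so this split is a description of the members only. Those at 48 h only were sucrose synthase 4, Zm00001d040399 and Zm00001d025617. Among those at 24 h only, Zm00001d015715 increased, with a log2 difference of 1.02 (SE 0.14, adjusted p = 6.29e-05), and so did Zm00001d040190, with 1.00 (SE 0.11, adjusted p = 1.74e-05). Another 5 decreased. They were Zm00001d040029 at -1.01 (SE 0.13, adjusted p = 4.67e-05), Zm00001d050375 at -1.01 (SE 0.07, adjusted p = 3.09e-07), Zm00001d009567 at -1.12 (SE 0.08, adjusted p = 5.36e-07), Zm00001d004855 at -1.12 (SE 0.11, adjusted p = 6.16e-06) and the assembled transcript MSTRG.39465 at -1.31 (SE 0.21, adjusted p = 0.000231). None of these 7 has a description, and none of the 10 members called at only 1 time passed edgeR's test of the difference between times. The call of Zm00001d015715 was lost without the first WW24 library or the third WS24 library. That of Zm00001d040190 was lost without the first or the third WW24, the third WS24 or any of the WW48 libraries, and also with the replicate block and with TMM factors from features that are not members. The call of Zm00001d040029 was lost without the second or the third WW24 or the first WS24. That of Zm00001d050375 was lost without the second or the third WW24 or the third WS24. Both of these calls were also lost with no scaling factors, with no low count filter and in fits of only the groups compared. With no scaling factors the calls of Zm00001d009567 and Zm00001d004855 were lost as well. All 7 of these calls at 24 h were lost with glmTreat. MSTRG.39465 held 896, 909.7 and 1311 CPM in WW24, 536, 384 and 464 in WS24, 901, 587 and 711 in WW48 and 505, 436 and 342 in WS48, and it was also called in WS48 against WW24, at -1.42 (SE 0.21, adjusted p = 0.000157).

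**Figure D5:**
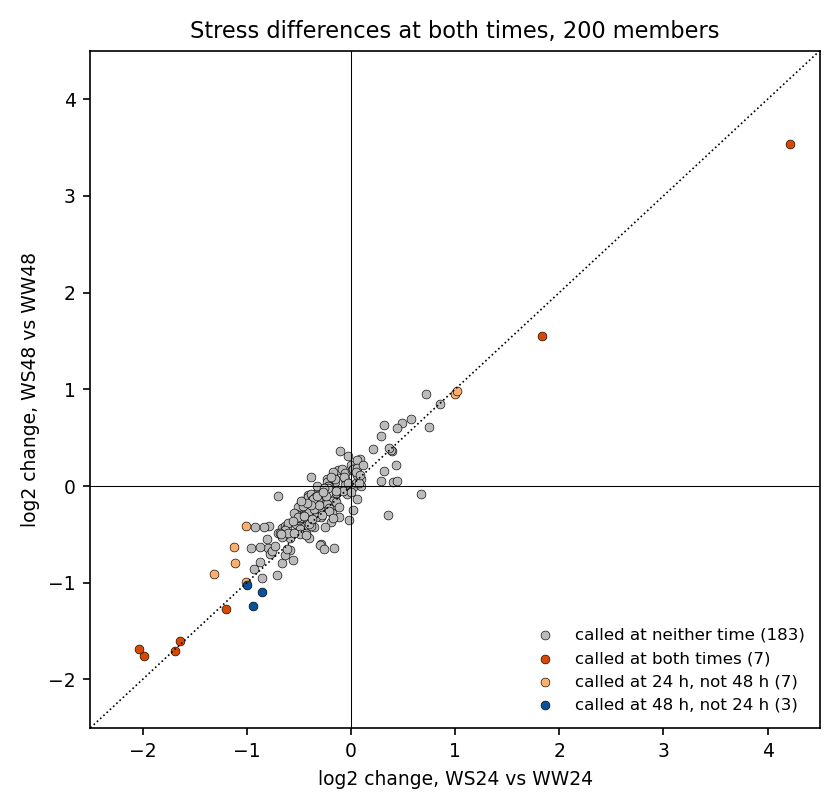
Log2 difference of WS24 against WW24 on the x axis and of WS48 against WW48 on the y axis for the 200 members, each point 1 member, with calls marked. The points follow a common line with r of 0.931, and seed imbibition 2 lies farthest out, at 4.22 and 3.53.

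Time alone changed no member past both thresholds. In WW48 against WW24, 0 members were called in either direction by edgeR's quasi-likelihood test (0.789% of all features increased and 0.191% decreased) and 0 by DESeq2, while 46 had an unadjusted p under 0.05 and 3 an adjusted p of at most 0.05. Those 3 were Zm00001d017274 at a log2 difference of 0.46 (SE 0.09, adjusted p = 0.0283), the feature labelled by similarity to CCDP_MAIZE, at the value given above, and Zm00001d047253 at -0.56 (SE 0.14, adjusted p = 0.0486). DESeq2 gave 18 at that level, 3 higher and 15 lower, and the replicate block gave 1. In fits of WW24 and WW48 alone, or without the second or the third WW24 library, none passed. Over 20 alternatives the adjusted p ranged from 0.000199 to 0.0907 for Zm00001d017274, from 0.00111 to 0.138 for the CCDP_MAIZE feature and from 0.00188 to 0.155 for Zm00001d047253. In WS48 against WS24, again 0 were called by either tool (0.34 and 0.568% of all features), with 54 at an unadjusted p under 0.05. Here the adjusted p was at most 0.05 for Zm00001d041458 at 0.87 (SE 0.14, adjusted p = 0.00721), Zm00001d018454 at 0.49 (SE 0.08, adjusted p = 0.011) and Zm00001d051362 at -0.50 (SE 0.11, adjusted p = 0.0316). Zm00001d051362, at place 20, held 1711, 1682 and 2086 CPM in WS24 and 1265, 1202 and 1406 in WS48, and the groups did not overlap. DESeq2 gave 7 higher and 7 lower at that level, and fits of WS24 and WS48 alone 7 and 5. Over 20 alternatives the adjusted p of Zm00001d041458 was at most 0.0446, that of Zm00001d018454 at most 0.0512, the latter without the first WS48 library, and that of Zm00001d051362 at most 0.129. Zm00001d051362 missed the level of 0.05 without the first or the third WS24 or the first or the second WS48 library. The test of whether the stress difference itself differed between times called 0 members by either tool (0.131 and 0.254% of all features), with 42 at an unadjusted p under 0.05. The median log2 difference of the members was -0.0789 between the WW times and 0.0391 between the WS times.

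In numbers of reads, the lower share under stress was the net of gains and losses spread over many members. From WW48 to WS48, 83 members gained 14354 CPM in sum and 117 lost 24495 CPM, a net loss of 10140.1 CPM. Zm00001d019163 alone gained 1633 CPM, 11.4% of all gains, and the 10 members with the largest gains made up 41.1%, whereas the 10 with the largest losses made up 28.5% of the losses. Next among the gains were Zm00001d028998 at 1063 CPM and Zm00001d003157 at 566 CPM. The losses were led by Zm00001d042453 at -879 CPM, the 14-3-3 gene Zm00001d003401 at -858 CPM, Zm00001d002690 at -857 CPM and Zm00001d014467 at -752 CPM, and 8 of the 10 largest losses came from members within the first 23 by level. From WW24 to WS24, 58 members gained 14739.9 CPM and 142 lost 32020.4 CPM, a net loss of 17280.4 CPM. From WS24 to WS48 the net was -16.7 CPM, with 123 members gaining and 77 losing. These sums are of raw CPM and carry no test.

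Several undescribed members differed by less than the fold threshold in WS48 against WW48 but carried many reads, and are named for their gain or loss in CPM. Zm00001d038841, at place 178, held 419, 396 and 406 CPM in WW24, 746, 718 and 756 in WS24, 306, 396 and 274 in WW48 and 683, 668 and 715 in WS48, with a log2 difference of 0.95 (SE 0.11, adjusted p = 1.9e-05) in WS48 against WW48. Zm00001d040190, at place 141, held 384, 465 and 406 CPM in WW24, 896, 834 and 1039 in WS24, 396, 364 and 344 in WW48 and 752, 746 and 840.0 in WS48, with 0.95 (SE 0.11, adjusted p = 3.03e-05), and was called at 24 h as given above. Zm00001d044455, at place 118, held 442, 511 and 589 CPM in WW24, 872, 893 and 1300.0 in WS24, 409, 411 and 387 in WW48 and 796, 808 and 770.4 in WS48, with 0.85 (SE 0.15, adjusted p = 0.000784). In all 3 the WS48 libraries lay above the WW48 libraries. In the other direction, Zm00001d014467, at place 21, held 1805, 1820.1 and 2069 CPM in WW24, 1356, 1359 and 1564 in WS24, 2008, 2190.3 and 2109 in WW48 and 1261, 1238 and 1552 in WS48, and its log2 difference was -0.77 (SE 0.11, adjusted p = 0.0001). Zm00001d017485, at place 17, held 1657, 1986 and 1913 CPM in WW24, 1629, 1552 and 1844 in WS24, 2406, 2126 and 2130.2 in WW48 and 1498, 1463 and 1842 in WS48, with -0.60 (SE 0.12, adjusted p = 0.00156). Zm00001d019317, at place 23, held 1729.8, 1981 and 1965 CPM in WW24, 1199, 1247 and 1167 in WS24, 1783, 1943 and 1690.1 in WW48 and 1299, 1217 and 1285 in WS48, with -0.64 (SE 0.09, adjusted p = 7.66e-05). For each of these the WS48 libraries were below the WW48 libraries, and at 24 h the log2 differences were -0.55, -0.29 and -0.80, with adjusted p of 0.00101, 0.0703 and 1.1e-05 by edgeR's quasi-likelihood test.

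Differences in size were mostly small, also where they passed the test. For 121 of the 200 (60.5%) the log2 difference stayed under 0.5 in size in all 5 comparisons of groups, beside 48.6% of all features tested, and for 183 (91.5%) it stayed under 1, beside 74.2%. Calls in at least 1 comparison numbered 17, a count not taken over all features. In WS48 against WW48, 24.5% of the members and 23.1% of the 800 features ranked next differed by 0.5 or more in size. At 24 h these shares were 31.5 and 32%, so small differences were not particular to the 200. The steadiest 5 were Zm00001d047757 (580.5 to 701 CPM), Zm00001d031128 (2479 to 3171 CPM), Zm00001d010920 (528 to 617 CPM), Zm00001d053090 (529 to 725 CPM) and Zm00001d006760 (573 to 693 CPM), given as lowest and highest of the 12 libraries, and none of them has a description. Their largest log2 difference in any comparison was 0.04, 0.06, 0.07, 0.08 and 0.09 in size, in the same order. This steadiness is relative to the TMM scale. For the first of them, Zm00001d047757, all 6 WS libraries were above all 6 WW libraries in raw CPM, and its log2 difference in WS48 against WW48 was 0.16 with no scaling. At the other end, the members that varied most between replicates of a group, after seed imbibition 2, were Zm00001d042540, MSTRG.39465, Zm00001d042541 and Zm00001d023215. Of these, Zm00001d042541 is the ninth member by level and held 1638, 2309 and 1829.8 CPM in WW24, 3164, 3309 and 3711 in WS24, 2916, 1489.7 and 2179 in WW48 and 2204, 2281 and 2344 in WS48. Its WS24 libraries were above all others, but its log2 difference of 0.67 (SE 0.20, adjusted p = 0.0167) at 24 h was not seen at 48 h, where it was -0.08 (SE 0.20, adjusted p = 0.791), and the difference between times had an adjusted p of 0.254. Zm00001d042540, the identifier just before it, held 716, 1201 and 884 CPM in WW24, 728, 853 and 936 in WS24, 1382, 751 and 946 in WW48 and 699, 699 and 816 in WS48. In WW24 the second library was the highest for both genes and the first the lowest, and in WW48 the first was the highest and the second the lowest, a likeness picked out after the values were seen. How the counting treats reads shared by near-identical genes was not tested, so the level of either could include reads of a close copy.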

How the data were processed

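The raw counts per gene were deposited by the authors, who aligned strand-specific reads with HISAT2 (1.0 in the processing notes) to maize B73 RefGen_v4 with an assembly specific to FR697 and counted them with HTSeq (0.6.1). Whether counting used strand was not given in the labels or methods, so overlapping antisense genes and close copies may share reads. The deposited normalized values, a score of rounded TMM-scaled counts, were not tested. The 4 summary rows that name no gene, 12.7 to 23.1% (not aligned), 3.20 to 3.70% (low quality), 1.87 to 2.25% (no feature) and 0.942 to 1.08% (ambiguous) of all rows' counts, were left out of totals.

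CPM was computed on gene row totals. All 12 libraries were fitted together with edgeR 4.0.16 in R 4.3.3 (filterByExpr with a minimum count of 10, TMM factors of 0.926 to 1.06, quasi-likelihood F-test, Benjamini-Hochberg adjustment), with no replicate block. Log2 differences are TMM-scaled and printed CPM are not, and SEs were taken from the log2 difference and the F statistic. Tested on simulated data for WS48 against both controls (26292 genes), 22% of genes changed by a log2 of 1 and 100% of those changed by 1.5, 2 or 3 were called. A change of 1 equals the cutoff itself, so a low share at that size was built in. Alternatives were other scalings, DESeq2 1.42.0, glmTreat, other thresholds, filters and fits, and leaving out each library.

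Named genes were the 20 most abundant members, those called against both controls, members of keyword lists, those at the threshold of the ranking, the 5 steadiest and 5 most variable, those of smallest p in the other comparisons, and the 10 largest gains and losses in CPM. The other members called at 24 h and Zm00001d049179 were added after their values were seen. The members, lists and rules were chosen with earlier results of these data known. Descriptions came from the study's supplementary lists and the file's labels. None of the 196 nuclear members matched the RefSeq table used for names (assembly Zm-B73-REFERENCE-NAM-5.0).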

Additional observations from a re-analysis of the deposited data

Results flagged for a closer look

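The gene Zm00001d017274, at place 79 by level and without a description, had a stress difference that passed the adjusted p of 0.05 in the test of 48 h against 24 h (edgeR's quasi-likelihood test, log2 -0.66, SE 0.13, adjusted p = 0.0465). Over 19 alternatives the adjusted p ranged from 0.000199 to 0.141 and passed in 8. It missed the threshold with the replicate block (0.0686) and in 10 of the 12 fits that left out 1 library, all except those without the third WW48 or the third WS48 library. DESeq2 gave 5 members with a positive and 2 with a negative difference between times at that level. Its log2 difference was 0.36 in WS24 against WW24 and -0.30 in WS48 against WW48, so that it turned from higher to lower, and its size was below the fold threshold of 1. It held 639, 582 and 631 CPM in WW24, 861, 832 and 915 in WS24, 954, 815 and 799.8 in WW48 and 731, 700.3 and 845 in WS48. In WW48 the level was above WW24, which entered the difference along with the WS libraries.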

How the results depend on the processing

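Over 22 alternatives, 12 of which left out 1 library, no called member changed direction. Of 35 calls of named members in single comparisons, 21 held under every alternative and 14 were lost under at least 1, and 14 of 70 results without a call changed sign near 0. With no scaling factors, WS48 against WW48 gave 5 increases and 6 decreases, beside 2291 and 1543 of all features tested. WS24 against WW24 gave 4 and 6, beside 2971 and 1209. Testing against a log2 change of 1 with glmTreat left 2 increases and 5 decreases in each stress comparison. These were WS48 against WW48 (910 and 798 of all features tested), WS48 against WW24 (924 and 501) and WS24 against WW24 (1224 and 640). Against both controls 2 increases and 5 decreases were left, beside 693 and 432 of all features tested. By the adjusted p alone, increases and decreases numbered 23 and 94 in WS48 against WW48 (5261 and 5488 of all features tested). They numbered 17 and 106 in WS48 against WW24 (5361 and 5087) and 21 and 120 in WS24 against WW24 (5868 and 5727). Against both controls they numbered 15 and 84 (4064 and 4090). They numbered 1 and 2 in WW48 against WW24 (501 and 191) and 2 and 1 in WS48 against WS24 (215 and 326). In the test of the difference between times they numbered 0 and 1 (64 and 103). Leaving out 1 library gave 2 to 4 increases and 7 to 10 decreases in WS48 against WW48, 2 and 8 to 12 in WS48 against WW24, 2 to 4 and 8 to 13 at 24 h, and 2 and 7 to 10 against both controls. Over all features these fits gave 1707 to 2008 increases and 1621 to 1942 decreases in WS48 against WW48. In WS48 against WW24 they gave 1829 to 2265 and 1142 to 1358, and at 24 h 2313 to 2647 and 1379 to 1529. Against both controls they gave 1296 to 1511 increases and 949 to 1166 decreases. The other counts of members stayed at 0. Without the 10 most abundant members the share of counts was 16.6% in WW24, 15.1% in WS24, 15.9% in WW48 and 15.1% in WS48. With no feature left out by the rule, an alternative chosen after seeing the data, 3 members increased and 10 decreased against both controls. Over all features tested the counts were 1478 and 1077. Features left out by the rule were thus among the called ones. Whether the replicate numbers pair the samples is not stated in the sources and could not be settled. Of 18 same-numbered pairs of libraries 1 had a correlation of deviations over 0.1 (range -0.504 to 0.111). Pairs with unlike numbers reached 0.476, for the third WW48 with the second WS48 library, and a pairing under other numbers was not tested. With a replicate block 2 members increased and 8 decreased against both controls, beside 1448 and 1044 of all features tested. At 24 h 3 increased and 10 decreased, beside 2420 and 1460. The causes of these shifts were not tested. In simulated counts 22% of changes set at the threshold were called, a low share that the cutoff built in. That share bears on changes missed near the threshold and not on calls that were made. At depths of 40005384 counts or more low counts limited no member.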
